A study of Mus musculus with 6 samples.

Results

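The monocyte and eosinophil CC chemokines are small secreted proteins that draw leukocytes into inflamed tissue, and they were read here as 8 ligand genes, Ccl2, Ccl3, Ccl4, Ccl6, Ccl7, Ccl8, Ccl9 and Ccl11, together with the receptor gene Ccr2. Members were all gene probes that the scanner files name with one of these 9 symbols, which gave 10 probes (Ccl4 has a pair), among 37325 symbols on the array. All 10 probes were well above background on all 6 arrays, and 9 of 9 members were tested among 19087 genes. The arrays measured colon tissue with tumors from male C57BL/6 mice, bought at 6 to 8 weeks of age, in which AOM (azoxymethane, a carcinogen, 10 μg/g) and 2% DSS (dextran sodium sulfate, which injures the colon lining) had induced colitis-associated tumors. Mice of the treated group received RG@M-γ-CD, the kinase inhibitor regorafenib (RG) held in mannose-modified γ-cyclodextrin, by mouth at 30 μg/g of the complex (10 μg/g RG), and the control group received PBS. Dosing lasted 21 days and was followed by 14 days of observation. Each group had 3 mice with 1 one-color array each, and no arrays of the drug alone, of the carrier alone or of mice without tumors were analysed here. The mice carried the same chemical induction in both groups, so every difference below is one between treated and untreated tumor-bearing colon.

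CC chemokines act through G protein-coupled receptors on the leukocyte surface. Ccl2 and Ccl7 bind Ccr2, the receptor that lets inflammatory monocytes leave the bone marrow and enter tissue, where they become macrophages. Ccl11 (eotaxin) attracts eosinophils through Ccr3. Ccl3 and Ccl4 are the macrophage inflammatory proteins, and Ccl3 binds Ccr1, the receptor of Ccl6 and Ccl9. In the colon these ligands are made by macrophages, fibroblasts, endothelium and epithelium, and they are known for sustaining the monocyte supply of inflamed mucosa.

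All 8 ligand genes lie on chromosome 11 in groups of neighbours. In the RefSeq gene table (GRCm38.p6) Ccl2, Ccl7, Ccl11 and Ccl8, with Ccl12 between Ccl11 and Ccl8, span 81.2 kb, Ccl9, Ccl6, Ccl3 and Ccl4 span 91.8 kb, and the groups are 1456.1 kb apart. Ccr2 is on chromosome 9. The table's span of Ccl4 overlaps that of Ccl3, while their probes lie apart. The probes are 60-base oligonucleotides, of which the first 30 bases are printed for the members on which the results below turn. Ccl7 has the largest difference, Ccl9 and Ccr2 are at an unadjusted p below 0.05 when the arrays are grouped in another way, and the Ccl4 probes are the only pair on 1 gene. The scanner files place the Ccl7 probe at 81860656 to 81860715 (chromosome 11, plus strand), the Ccl9 probe at 83388223 to 83388282 (chromosome 11, minus strand), the Ccr2 probe at 124022948 to 124023007 (chromosome 9, plus strand) and the Ccl4 probes at 83478052 to 83478111 and 83478038 to 83478097 (chromosome 11, plus strand), all in mm9. Their place relative to exons and UTRs was not analysed here. Capitals mark the bases that the Ccl4 probes have in common within the printed stretch. The Ccl4 probes share 46 of their 60 bases, so their readings are not independent, whereas the longest run common to probes of different members was 9 bases.
Ccl7 probe: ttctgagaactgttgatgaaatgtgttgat
Ccl9 probe: caactaggatgaaataaattctgccttagc
Ccr2 probe: gaagcagggacagaattcttgctttgaaaa
Ccl4 brighter probe: TATTATTTATGTTTTAGTTATAGGACGCGT
Ccl4 dimmer probe: gggagtattattttTATTATTTATGTTTTA

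Of the 9 genes only Ccl7, one of the Ccr2 ligands, differed between the groups at an unadjusted p below 0.05, being 3.10-fold lower in RG@M-γ-CD, and none passed the adjusted threshold. The other 8 genes differed by between −0.47 and 0.28 on the log2 scale, and every one of their 95% confidence intervals included 0. In limma, fitted across all genes with Benjamini-Hochberg adjustment at 0.05, 0% of the 19087 genes tested passed (0 of 19087, against 419 at an unadjusted p below 0.05, which is 2.2%). The count of members at an unadjusted p below 0.05 was 1 of 9. Lower means in RG@M-γ-CD were found in 6 of 9 members with a median log2 change of −0.29, beside 52.8% of all genes and a median of −0.01. None of the 9 had groups that did not overlap, a condition that 4.57% of all genes met. A fold of at least 2 together with an unadjusted p of at most 0.05 was met by Ccl7 alone among the members and by 0.561% of all genes. Levels below are log2 intensities from which the array's own 75th percentile was subtracted, and levels of different probes are not comparable with each other. Colon tissue is a mixture, so fewer cells of a type and less RNA per cell cannot be told apart in any of these values.

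**Figure D1:**
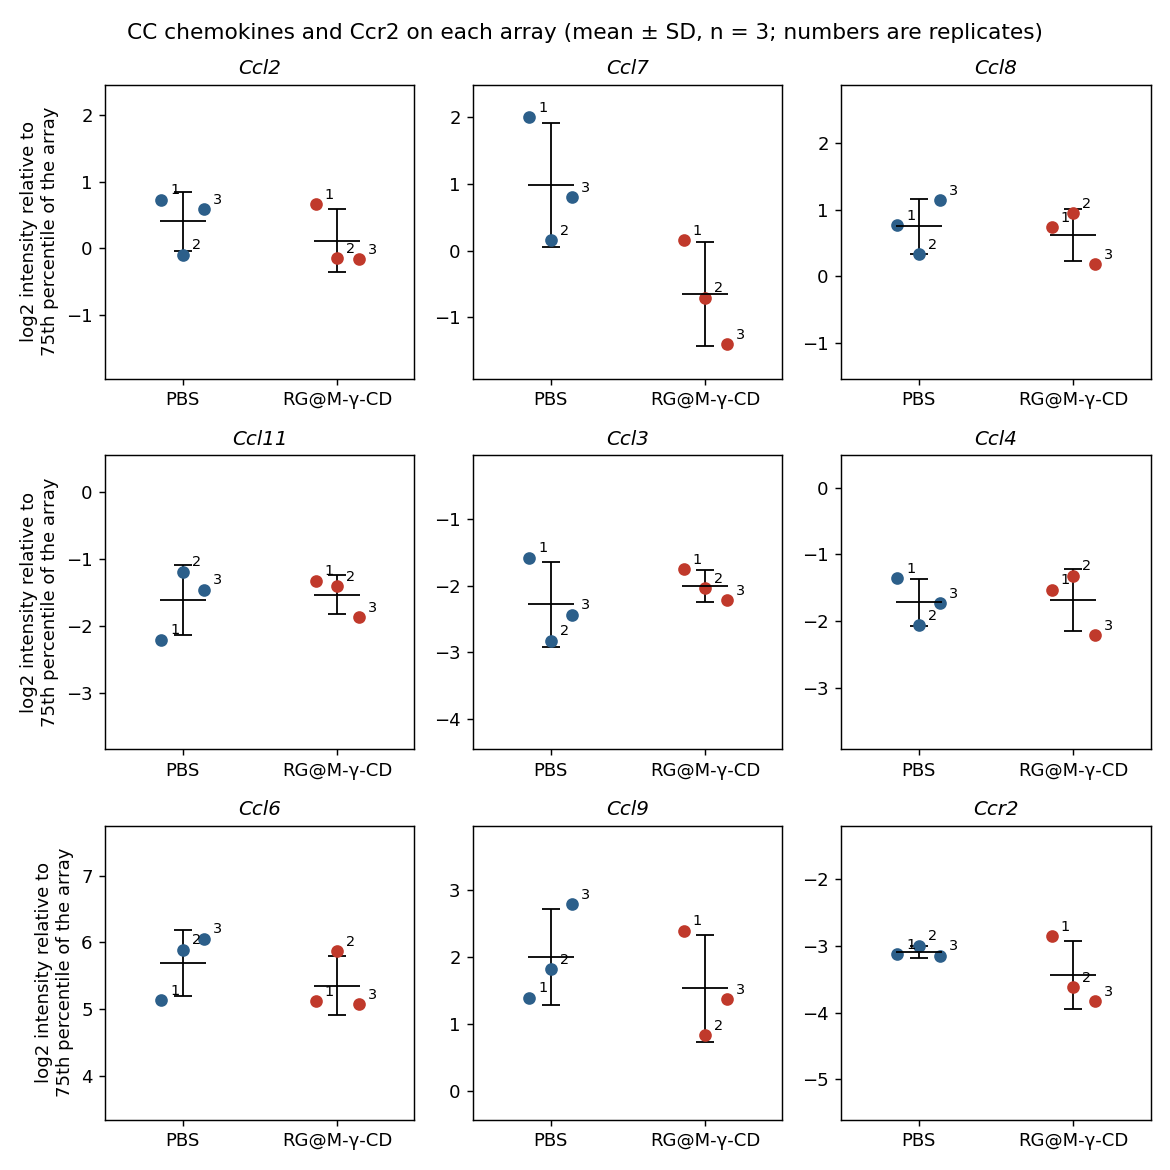
Each panel plots 1 gene, with the log2 intensity relative to the array's 75th percentile on the vertical axis and the groups on the horizontal axis; points are single arrays numbered by replicate, the long bar is the mean and the whiskers are the SD (n = 3). All panels span the same number of log2 units, and Ccl7 is the gene whose group means lie furthest apart (−0.65 for RG@M-γ-CD and 0.98 for PBS), with RG@M-γ-CD replicate 1 level with PBS replicate 2.

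The ligands of Ccr2 held the largest change. Ccl7, also called monocyte chemoattractant protein 3, read 0.16, −0.71 and −1.40 in RG@M-γ-CD replicates 1 to 3 and 1.99, 0.15 and 0.80 in PBS replicates 1 to 3. The underlying intensities were 599, 238 and 155 against 1763, 356 and 778. PBS replicate 1 was the highest array and RG@M-γ-CD replicate 3 the lowest, and the groups overlapped by 0.01 only, where RG@M-γ-CD replicate 1 met PBS replicate 2. The mean was −0.65 ± 0.78 (SD, n = 3) for RG@M-γ-CD and 0.98 ± 0.93 for PBS, a log2 change of −1.63 (SE 0.57, 95% confidence interval −3.0 to −0.26, unadjusted p = 0.0263, adjusted p = 1.0 in limma). The absolute change lay at the 99.7th percentile of all genes tested. An exact two-sided permutation test gave p = 0.2, where 3 arrays against 3 cannot go below 0.1. PBS replicate 1 carried part of the difference: without it the change was −1.13, and without PBS replicate 2 −2.05, with unadjusted p between 0.0108 and 0.0805 over the arrays left out in turn.

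Ccl2, or monocyte chemoattractant protein 1, is the main Ccr2 ligand and the neighbour of Ccl7 on the chromosome. It read 0.66, −0.14 and −0.17 for RG@M-γ-CD and 0.73, −0.09 and 0.59 for PBS. In each group replicate 1 was the highest array, and the groups overlapped over most of their range. The log2 change was −0.29 (SE 0.32, 95% confidence interval −1.07 to 0.48, unadjusted p = 0.397), less than the SD of either group (0.47 and 0.44). The interval leaves room for a level from 0.477 to 1.40 times that in PBS.

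Ccl8, which in mice acts on Ccr8 of T helper type 2 cells, read 0.73, 0.94 and 0.18 for RG@M-γ-CD and 0.77, 0.33 and 1.14 for PBS. PBS replicate 3 was highest and RG@M-γ-CD replicate 3 lowest, with the other arrays interleaved. Its log2 change was −0.13 (SE 0.29, 95% confidence interval −0.82 to 0.57, unadjusted p = 0.672). The sign turned to 0.09 without RG@M-γ-CD replicate 3 and to 0.07 without PBS replicate 3.

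Ccl11, the eosinophil attractant, was among the 3 genes with a higher mean in RG@M-γ-CD, by 0.08 (SE 0.31, 95% confidence interval −0.65 to 0.82, unadjusted p = 0.796). The arrays read −1.33, −1.41 and −1.87 for RG@M-γ-CD and −2.21, −1.19 and −1.46 for PBS. PBS replicate 1, highest of all arrays for Ccl7, was the lowest for Ccl11, and without it the change was −0.21. On the array that lay highest for one of these neighbouring genes the other was therefore at its lowest.

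Of Ccl3 and Ccl4, which activated macrophages and lymphocytes make, only Ccl4 had group means close together. Ccl3 read −1.75, −2.04 and −2.22 for RG@M-γ-CD and −1.58, −2.83 and −2.44 for PBS, a log2 change of 0.28 (SE 0.34, 95% confidence interval −0.53 to 1.09, unadjusted p = 0.438). PBS held both its highest and its lowest array, replicates 1 and 2. Without PBS replicate 1 the Ccl3 change was 0.63 at an unadjusted p of 0.0397. Ccl4 read −1.53, −1.32 and −2.21 for RG@M-γ-CD and −1.36, −2.07 and −1.73 for PBS on its brighter probe, a log2 change of 0.03 (SE 0.30, 95% confidence interval −0.69 to 0.75, unadjusted p = 0.926). The dimmer, overlapping probe gave −2.57, −2.14 and −3.20 against −2.24, −3.34 and −2.50, a change of 0.06 (SE 0.38). On both probes RG@M-γ-CD replicate 2 was the highest array, while the lowest was RG@M-γ-CD replicate 3 on one and PBS replicate 2 on the other.

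The Ccr1 ligands Ccl6 and Ccl9, which mouse myeloid cells produce, were lower in mean and overlapped between the groups. Ccl6 read 5.12, 5.87 and 5.07 for RG@M-γ-CD and 5.13, 5.89 and 6.05 for PBS, a log2 change of −0.34 (SE 0.33, 95% confidence interval −1.13 to 0.46, unadjusted p = 0.344). RG@M-γ-CD replicate 2 and PBS replicate 2 were level for Ccl6, as were both replicates 1. Ccl9 read 2.40, 0.83 and 1.37 for RG@M-γ-CD and 1.39, 1.82 and 2.80 for PBS, a log2 change of −0.47 (SE 0.51, 95% confidence interval −1.69 to 0.75, unadjusted p = 0.388). RG@M-γ-CD replicate 1 had the second highest Ccl9 level of all arrays and PBS replicate 1 the third lowest. Leaving out PBS replicate 3 brought the change to −0.07 and leaving out RG@M-γ-CD replicate 1 brought it to −0.90.

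Ccr2, the receptor on inflammatory monocytes, was dim, with intensities between 28.7 and 74.1 on the 6 arrays. It read −2.86, −3.62 and −3.83 for RG@M-γ-CD and −3.13, −3.0 and −3.15 for PBS. The PBS arrays had an SD of 0.08, against 0.51 in the treated group, and RG@M-γ-CD held the highest array, replicate 1, as well as the lowest ones. The log2 change was −0.35 (SE 0.27, 95% confidence interval −1.0 to 0.31, unadjusted p = 0.247). With RG@M-γ-CD replicate 1 left out the change was −0.63 at an unadjusted p of 0.0105 and an adjusted p of 0.189 in limma, a refit in which 206 genes of the whole array passed the adjusted threshold.

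**Figure D2:**
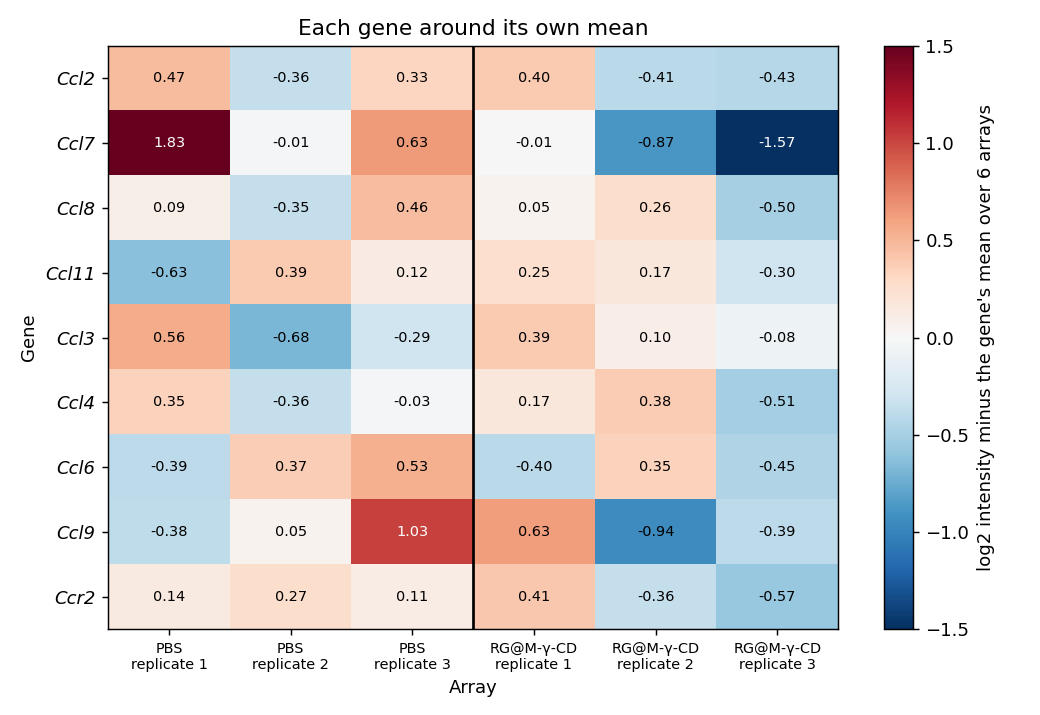
Rows are genes and columns are arrays, and each cell gives the log2 intensity minus that gene's mean over the 6 arrays (red above, blue below, color scale limited to 1.5 on either side). RG@M-γ-CD replicate 3 is below the gene's mean in every row, while PBS replicate 1 runs from 1.83 for Ccl7 to −0.63 for Ccl11.

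In 8 of the 9 genes, all but Ccl7, the difference between the group means was smaller than the larger of the group SDs. Averaged over the 9 genes, the level around each gene's own mean was 0.21, −0.15 and −0.53 in RG@M-γ-CD replicates 1 to 3 and 0.23, −0.08 and 0.32 in PBS replicates 1 to 3. RG@M-γ-CD replicate 3 was lowest in 6 of the 9 genes and above the gene's mean in 0, whereas RG@M-γ-CD replicate 1 was above it in 7, as many as PBS replicate 3. As a description over the same 6 arrays, the members with the most similar centred profiles were Ccl4 and Ccl8 (mean absolute difference 0.17), followed by Ccl2 and Ccr2 (0.23). Outside the members, the mean profile of the 9 genes was followed most closely by AW112010 (mean absolute difference 0.05), Gramd1a (0.06), Ltb4r1 (0.06), Mrc1 (0.07) and E330011O21Rik (0.08). Ltb4r1 encodes a leukotriene B4 receptor of leukocytes and Mrc1 the macrophage mannose receptor.

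The study's supplementary heat map of differentially expressed genes, which was clustered, groups the arrays in another way. Arrays 6, 7 and 8 are on one side and 5, 10 and 11 on the other. RG@M-γ-CD replicate 1 (array 5) and PBS replicate 1 (array 8) thus change places. The sides may have been drawn from these same expression values, so the p-values and shares for them are descriptive only. With the sides as groups, in the direction of arrays 6, 7 and 8 minus the others, the Ccl7 change was −0.41 (unadjusted p = 0.642) in place of −1.63. Ccl9 stood further from 0 than as labelled, at −1.14 (SE 0.29, unadjusted p = 0.00660, adjusted p = 0.297 in limma), and its sides did not overlap, as in 25.5% of all genes. Ccr2 stood at −0.53 (unadjusted p = 0.0439), so 2 of 9 members were at an unadjusted p below 0.05 beside 16.5% of all genes. Neither side is named as treated here, and which grouping holds was not tested.

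Replicates 2 and 3 of each group are placed alike by both groupings. Over these 4 arrays, 6 of 9 members had groups that did not overlap, beside 49.3% of all genes, since 2 arrays against 2 separate easily. Ccl7 was lower by a log2 change of −1.53 (SE 0.35, unadjusted p = 0.00846, adjusted p = 0.200 in limma). Ccl9 stood at −1.21 (unadjusted p = 0.0324) and Ccr2 at −0.65 (unadjusted p = 0.0211), while Ccl3 was higher by 0.50 (unadjusted p = 0.0764). None of the 9 passed the adjusted threshold. At an unadjusted p below 0.05 were 3 of 9 members, beside 2406 of 19572 genes. The heat map grouping served to choose these 4 arrays, so their p-values are descriptive only as well.

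**Figure D3:**
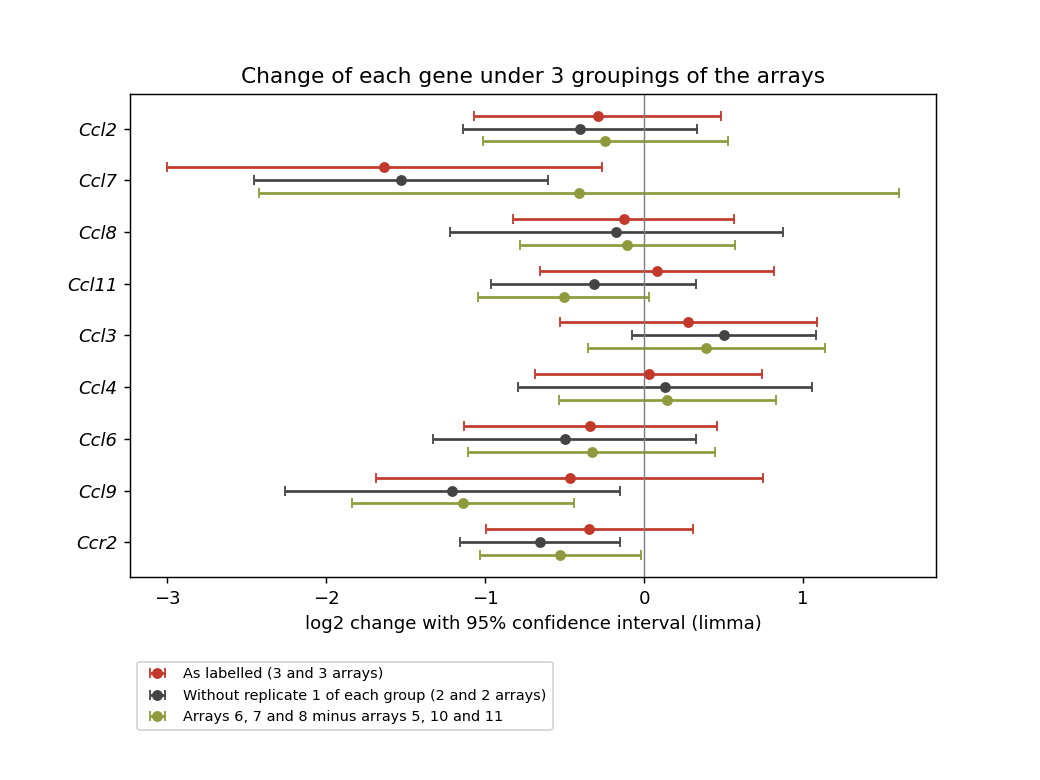
Points are log2 changes from limma and bars their 95% confidence intervals, for the groups as labelled (RG@M-γ-CD minus PBS, red), the same without replicate 1 of each group (grey) and arrays 6, 7 and 8 minus arrays 5, 10 and 11 (olive). The interval of Ccl7 excludes 0 in red and grey and not in olive (−0.41), and those of Ccl9 and Ccr2 exclude 0 in grey and olive and not in red.

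The position on the slide also differed between the groups. RG@M-γ-CD replicates 1 to 3 and PBS replicate 1 were in slide row 1, and PBS replicates 2 and 3 in row 2. Within row 1, where PBS has a single array, Ccl7 changed by −2.65 (unadjusted p = 0.0178, the lone array being assumed to vary like the other group), while Ccl3 (−0.42), Ccl4 (−0.33), Ccl6 (0.22) and Ccl9 (0.14) took the opposite sign. Since the row 2 arrays are all PBS, the row and the group could be compared through PBS replicate 1 alone.

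Among the other CC ligands, 5 of 7 tested genes were lower in mean, with a median log2 change of −0.66, and 3 had an unadjusted p below 0.05. Ccl12, a further Ccr2 ligand of the mouse lying between Ccl11 and Ccl8, read −1.69, −2.38 and −2.29 for RG@M-γ-CD and −1.54, −1.62 and −1.24 for PBS, the lowest PBS array lying above the highest RG@M-γ-CD array (log2 change −0.66, SE 0.23, unadjusted p = 0.0289). Ccl17, which attracts T cells through Ccr4, read −0.87, −1.44 and −1.92 against −0.56, −0.81 and −0.17, also without overlap (−0.90, SE 0.31, unadjusted p = 0.0259). Ccl5, a ligand of Ccr1 and Ccr3, was lower by a log2 change of −0.91 (SE 0.34, unadjusted p = 0.0322), with RG@M-γ-CD replicate 2 above PBS replicate 3. The median of the list turned to 0.06 with arrays 6, 7 and 8 against the others, and was −0.31 with no filter on dim probes and −0.44 with normexp background correction. Ccl1 and Ccl22 were not tested, being well above background on at most 1 array. None of these passed the adjusted threshold.

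Of the partner and scavenger receptors 4 of 7 were tested, 2 lower and 2 higher, with a median of −0.06 that changed sign with the grouping (0.41 with arrays 6, 7 and 8 against the others). Ccr1 was well above background on 1 array, and Ccr3 and Ccr1l1 on 0, so these receptors, which serve Ccl6, Ccl9 and Ccl11, could not be tested. In the signalling list, the G protein subunits, kinases, arrestins and exchange factors downstream of these receptors, 15 of 21 tested genes were lower, with a median of −0.10, and 0 had an unadjusted p below 0.05. Plcb3, a phospholipase C, was the one gene of that list without overlap, higher by 0.21 (SE 0.16, unadjusted p = 0.237). Among the cytokines and factors that induce CC chemokines, 6 of 9 tested genes were lower, with a median of −0.21 and 0 at an unadjusted p below 0.05. Il1b differed by −0.97 (unadjusted p = 0.146) and Il6 by 0.88 (unadjusted p = 0.198), both with RG@M-γ-CD replicate 1 as the highest array. Il4 and Il13, which induce eotaxin, and Il5, a growth factor of eosinophils, were well above background on 0 arrays.

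Macrophage markers were lower in most cases, and monocyte markers in a share nearer to that of all genes (52.8%). None of them passed the adjusted threshold. Of the macrophage markers 11 of 12 were lower (median log2 change −0.50), from Lyz2, lysozyme, at −0.82 to Mertk, a receptor for dying cells, at 0.35. Their summed linear level, in units of each array's 75th percentile, was 58.5 to 164 for RG@M-γ-CD and 136 to 159 for PBS. Bright probes dominate such sums. Most of this one came from Lyz2, which read 5.45 to 7.06 for RG@M-γ-CD and 6.76 to 7.09 for PBS on the log2 scale. Monocyte markers were lower in 5 of 8 (median −0.24), from Ly6c2 at −0.58 to Chil3 at 0.28, with sums of 250 to 357 against 314 to 441. Leaving out RG@M-γ-CD replicate 1 brought the macrophage median to −0.77 and leaving out replicate 2 of that group to −0.32, and the monocyte median turned to 0.07 with slide row as a block. The part of macrophage or monocyte number in the Ccl7 and Ccr2 values was not tested.

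For the eosinophil side, the defining granule genes Epx, Prg2 and Ear6 and the receptor Ccr3 were well above background on 0 arrays, and Prg3 and Ear1 on at most 1. The 3 eosinophil markers tested were lower (median −0.40), from Ear2 at −0.31 to Il5ra at −1.27, with sums of 0.308 to 0.478 against 0.434 to 0.809. With no filter on dim probes the median was 0.01. Most defining eosinophil genes were thus not well above background on these arrays, and the naming of the set for eosinophils rests on the known role of Ccl11. The part of eosinophil number in the Ccl11 value was not tested.

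Neutrophil markers had the lowest median of the cell type lists, −1.52 over 7 tested genes with 6 lower, from S100a8 (−2.52) to Csf3r (0.06), with sums of 46.9 to 100.2 against 59.6 to 104. With RG@M-γ-CD replicate 2 left out this median came to −0.56, with replicate 1 of that group left out to −2.56, and with normexp to −0.49. T cell markers were lower in 7 of 7 (median −0.63, Cd5 −0.82 to Cd3e −0.37, sums 3.82 to 6.70 against 6.30 to 8.08), and B and plasma cell markers in 5 of 6 (median −0.37, Cd79b −0.63 to Jchain 0.49, sums 103 to 116 against 108 to 125). The direction of the B and plasma cell median rested on single arrays: it was 0.28 without PBS replicate 1, −1.03 without PBS replicate 3 and 0.75 with arrays 6, 7 and 8 against the others. Mast cell markers had a median of −0.06 over 7 genes, from Cma1 (−0.58) to Mcpt2 (0.10), with sums of 8.30 to 14.2 against 8.81 to 22.8, and the median was 0.64 without PBS replicate 3 and −0.51 without PBS replicate 2.

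Over all cell type lists, 0 genes passed the adjusted threshold. Among those at an unadjusted p below 0.05, lower were the monocyte co-receptor Cd14 (−0.41), the eosinophil lectin Siglecf (−0.40), the interleukin-5 receptor Il5ra and the T cell genes Cd3g (−0.64) and Cd5, and higher was the endothelial receptor Tek (0.72). Cd14, Siglecf, Cd3g and Tek are named after their values were seen.

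The tissue itself also differed between mice. Smooth muscle markers were higher in 8 of 8 (median 0.93, Cnn1 0.78 to Myh11 1.05), with sums of 108 to 827 in RG@M-γ-CD against 204 to 237 in PBS. Their median came to 1.76 with RG@M-γ-CD replicate 1 left out, 0.54 with replicate 2 and 0.37 with replicate 3 of that group left out. Myh11, the smooth muscle myosin, read 1.26 in RG@M-γ-CD replicate 1 and 4.37 and 4.49 in replicates 2 and 3, against 2.07 to 2.5 in PBS. Endothelial markers were higher in 8 of 8 (median 0.29, Eng 0.03 to Cldn5 0.78, sums 10.95 to 16.5 against 7.87 to 13.5) and fibroblast markers in 5 of 8 (median 0.05, Pdpn −0.27 to Lum 0.87, sums 92.9 to 161 against 123 to 129). Epithelial and colon identity markers, which check the labelled tissue, were all well above background in at least 1 group and had medians of −0.02 and −0.05. Their extremes were Krt18 (−0.25) and Vil1 (0.06), and Aqp8 (−0.53) and Car1 (0.33), with sums of 978 to 1218 against 933 to 1349 and of 586 to 995 against 746 to 1165. Aqp8, a colonocyte water channel, read −0.12 in RG@M-γ-CD replicate 1 and 3.06 or more on every other array. The part of this muscle and epithelial make-up in the chemokine values was not tested. RG@M-γ-CD replicate 1 was also the array whose probes correlated most with an array of the other group (PBS replicate 3, r = 0.987), and RG@M-γ-CD replicate 3 likewise correlated most with PBS replicate 2 (r = 0.985).

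**Figure D4:**
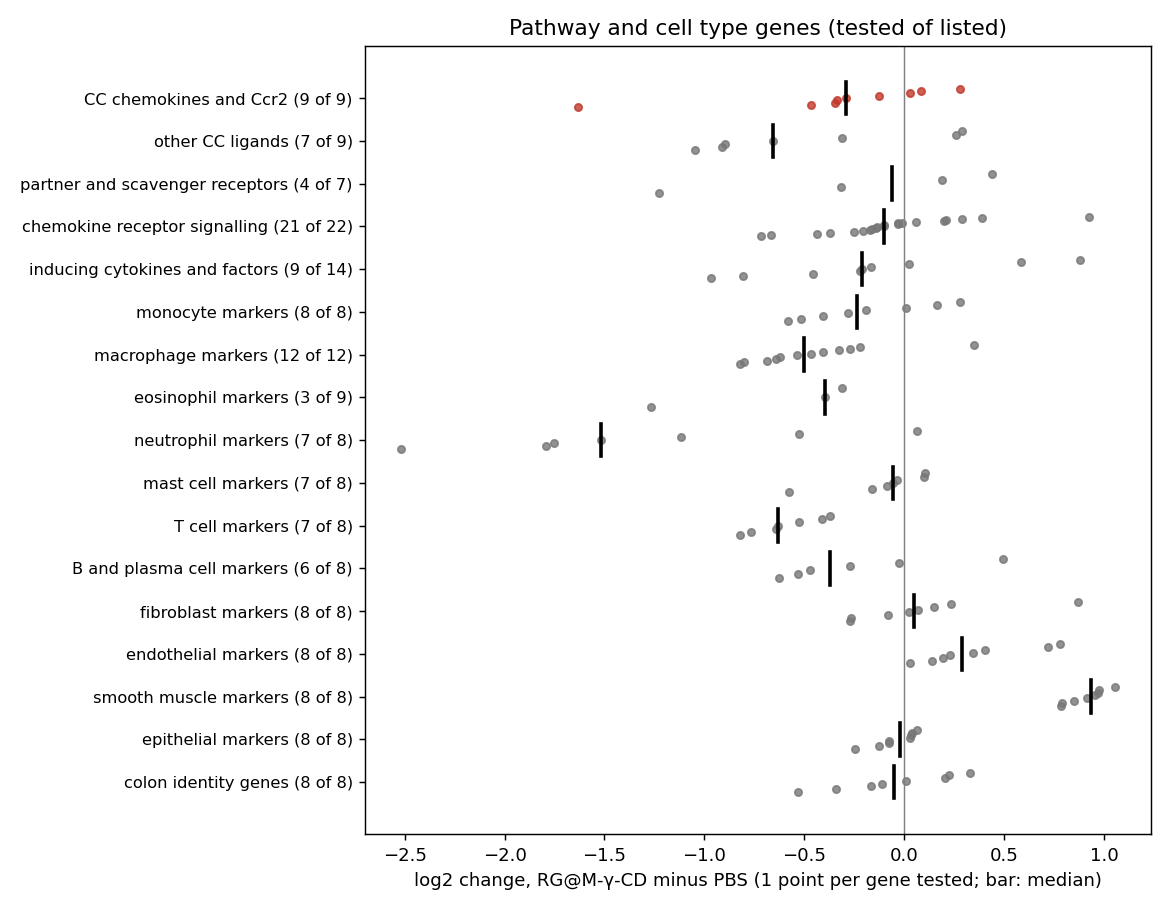
Each point is the log2 change of 1 tested gene (RG@M-γ-CD minus PBS, horizontal axis), each line is a gene list with the number tested of the number listed, and black bars are medians. The median is −0.29 for the CC chemokines and Ccr2 (red), −0.50 for macrophage markers, −1.52 for neutrophil markers and 0.93 for smooth muscle markers.

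RefSeq promoter windows (GRCm38.p6, 250 bases before to 50 after the start) were at hand for 5 of the 9 genes, Ccl3, Ccl6, Ccl8, Ccl9 and Ccr2. They were searched on both strands for motifs of factors known to drive chemokine genes, namely AP-1 (TGANTCA), NF-κB (by its consensus), STAT (TTC and GAA with 3 bases between) and STAT6 (the same with 4 between). Ccl9 held an AP-1 and an NF-κB match, motifs found in 7.81% and 8.46% of 32851 windows, and the other members with a window held no match to any of the motifs (STAT is in 8.30% and STAT6 in 6.95% of windows). The 110 bases before the Ccl9 start, chr11:83578637-83578746 on the minus strand, are shown because Ccl9 was the member with matches, and the capitals mark the AP-1 match and then the NF-κB match. A match describes these letters only.
Ccl9 upstream: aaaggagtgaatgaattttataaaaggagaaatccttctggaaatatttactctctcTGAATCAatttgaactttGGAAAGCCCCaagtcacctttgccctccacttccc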

How the data were processed

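Tumor-bearing colon from 3 treated (RG@M-γ-CD) and 3 control (PBS) mice, grouped by the labels, was measured on 1 array per mouse. The authors scanned the one-color Agilent arrays with Feature Extraction 10.7.1.1, and the deposited intensity of each spot is background corrected and not normalized between arrays. The log2 values of a second table, deposited by the authors, were used as an alternative only.

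In R 4.3.3 with limma 3.58.1, control spots and outlier spots (790 of all arrays) were left out, spots of a probe were averaged as log2, and the array's 75th percentile was subtracted. Of 56605 gene probes, 32994 (58.3%) were named through their accession and the rest kept the file's name. A gene was tested if any of its probes was well above background on all 3 arrays of a group. The brightest of the probes that met this was used. Between 49.6% and 55.2% of probes were so on each array, and 3 arrays a group limit the precision. The fit was tested on simulated data.

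The members and gene lists were chosen with earlier results of these data known. Named are all members, list genes at an unadjusted p below 0.05 or without overlap (otherwise the 2 largest changes), the extremes of cell type lists and the 5 nearest profiles. Alternatives covered normalization (quantile, or normexp with an offset of 50), the authors' table, the filter, probes of a gene, outlier spots, replicate and slide row blocks, the t-test of the methods, thresholds, grouping and left-out arrays. Some genes of the lists are counted but not reported by name here.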

Additional observations from a re-analysis of the deposited data

How the results depend on the processing

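No member passed the adjusted threshold under any of the alternatives tried, except that Ccl7 (1 gene) met the rule of a fold of 2 with an unadjusted p, as did 107 of all genes. The sign of Ccl2, Ccl7 and Ccr2 held in 19 of 19 alternatives, and Ccl7 was at an unadjusted p below 0.05 in 14 of them, not with the t-test of the methods. These are not counts of independent checks, since all alternatives reuse the same arrays. For a gene with 1 probe, the filters, the mean of probes, the replicate block and the t-test leave the estimate unchanged by construction. The 19 also include the other grouping of arrays, in which neither side is named as treated. Signs that turned were Ccl4 with normexp (−0.015), Ccl3 (−0.42), Ccl4 (−0.33), Ccl6 (0.22) and Ccl9 (0.14) both with slide row as a block and in row 1 only, and Ccl11 with the other grouping of arrays (−0.50) and without replicate 1 of both groups (−0.32). With 1 array or both replicates 1 left out, Ccl4 ranged from −0.15 to 0.29, Ccl8 from −0.34 to 0.090 and Ccl11 from −0.32 to 0.30. The number of members whose groups did not overlap was 1 with normexp (881 of 19087 genes), 1 with the other grouping (4914 of 19295), 4 in row 1 only (8024 of 20726) and 0 to 6 with arrays left out. It was 4 without RG@M-γ-CD replicate 1 (5046 of 19463), 2 without PBS replicate 1 (2869 of 19210), 1 without RG@M-γ-CD replicate 2 (2860 of 19313) or PBS replicate 2 (2265 of 19761), 0 without either replicate 3 (1476 of 19313 and 1442 of 19161) and 6 without both replicates 1 (9646 of 19572). The number of all genes past the adjusted threshold was 5 with the other grouping and 0 to 206 with arrays left out, the 206 without RG@M-γ-CD replicate 1. The cause of these shifts was not tested. Deviations of arrays with the same number correlated at −0.25, −0.23 and 0.14, so the numbers were not taken as pairs. With the replicate block the Ccl7 change was −1.63 (unadjusted p = 0.00511), 0 genes passed the adjusted threshold and 463 were at an unadjusted p below 0.05. Dim probes such as that of Ccr2 have the least signal over background.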

Other observations

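Ccl7 was compared with all other genes after its values were seen. Over the 6 arrays its centred profile, with a mean absolute amplitude of 0.82, lay nearest to that of BB189136 (mean absolute difference 0.22), Il2ra (0.27), Hdc (0.28) and Frmd5 (0.29). Il2ra encodes the interleukin-2 receptor alpha chain and Hdc the enzyme that makes histamine. These values describe 6 arrays that share the same groups.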
